A study of Mus musculus with 4 samples.

Results

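Genes for proteins of the extracellular matrix and for integrins were examined in 4 cell lines of murine small cell lung cancer (SCLC). The members were chosen by their symbols alone: collagen and laminin chains, fibronectin, fibrillins, fibulins, elastin, lysyl oxidases, thrombospondins, tenascin C, periostin, decorin, lumican, biglycan, Sparc, Spp1, and integrin subunits named by a number. The rule matched 99 of 54641 gene symbols in the deposited table. One of them, Col4a3bp, matched by its letters only, as it encodes a ceramide transfer protein and no collagen, which left 98 matrix and integrin genes. Of these, 70 reached 1 CPM (reads of a gene per 1000000 assigned reads) in at least 1 line, 45 reached 20 CPM, and 7 were listed at 0 in every line.

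The lines came from mice of an autochthonous model in which Rb1 and Trp53 are deleted conditionally by adenoviral Cre given into the airways. Tumors in the lungs of individual mice gave the lines P1, P4 and P5, and a metastasis in the liver of another mouse gave M1. All 4 lines come from this model and were cultured untreated in RPMI medium with fetal serum, and each is 1 line sequenced as 1 library, so that a difference between single lines has no replicate check. The labels name lung as the origin of every line, whereas the design of the series gives the liver metastasis for M1.

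The extracellular matrix is the scaffold of secreted proteins around cells. Basement membranes are sheets built from collagen IV and laminin networks beneath epithelia, while fibrillar collagens, fibronectin and elastic fibers form the interstitial matrix that is mainly laid down by fibroblasts. Integrins are paired alpha and beta subunits in the cell membrane that bind matrix proteins outside and link to the actin cytoskeleton inside, and matrix contact through beta 1 integrins has long been studied in SCLC as a source of survival signals.

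The libraries held between 9527011 and 13890726 assigned reads, so that 20 CPM corresponded to between 191 and 278 reads, and 3 reads, given here as the floor of a gene listed at 0, to between 0.216 CPM and 0.315 CPM. These floors cover counting error only. P4 and M1 stood apart, with 7985 and 10074 gene symbols above 0 against 17824 in P1 and 20578 in P5. Among 7534 genes that reached 10 CPM in P1 as well as P5, P4 had 19.8% at 0, M1 10.1% and both together 5.64%, and among the 28 members in that set these were 5, 6 and 4. Zeros are for this reason called listed values, no plain ratio was formed with them, and the log2 differences and 4-fold counts below have 1 CPM added to every value. Trp53 was at most 0.260 CPM in any line, and Rb1 was listed at 0 in P4 and M1, with 13.2 CPM in P5 and 10.3 CPM in P1. Reads of Rb1 were thus present in P1 and P5, and as the table has no values by exon the deletions could not be checked in any line. Of the markers of the labelled tumor type, Ncam1 was between 299 CPM in P4 and 1057 CPM in P5, and Neurod1 was at 134 CPM in M1 and under 0.1 CPM elsewhere.

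Matrix transcripts were most abundant in P5. Summed over the 79 matrix genes, P5 reached 10505 CPM, compared to 2998 CPM in P1, 1748 CPM in P4 and 1508 CPM in M1. The order did not rest on Sparc, the member with the highest CPM, without which the sums were 7455 CPM in P5, 2051 CPM in P1, 1408 CPM in P4 and 1308 CPM in M1. Of the 71 members tested, Col4a3bp included, 51 had their highest value in P5, which is 71.8% of them beside 38.2% of all 14888 genes that reached 1 CPM in a line. Another 13 members were highest in P1 (background 23.2%), 3 in P4 (16.6%) and 4 in M1 (22.0%). Genes that reached 1 CPM in 1 line alone could count as highest in that line only, among the members and in the background alike. Leaving out P4 gave the same count of 51 for P5, beside a background of 43.9%. Among the 19 members with at least 10 CPM in all 4 lines, 12 were highest in P5 (63.2%), against 23.0% of 4360 such genes. In these bulk samples, fewer cells of a type and less RNA per cell cannot be told apart.

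**Figure D1:**
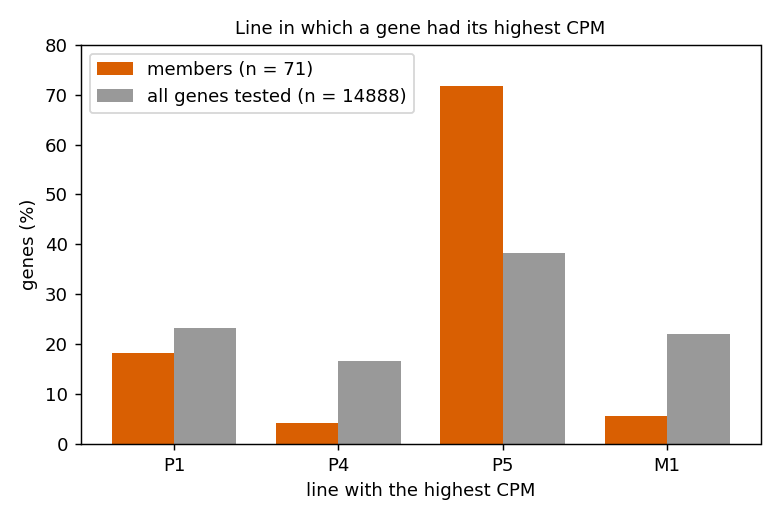
Share of genes (%, y axis) with their highest CPM in each of the 4 lines (x axis), for the 71 members tested (orange bars) and for all 14888 genes tested (grey bars). P5 held 71.8% of the members and 38.2% of all genes, while the members' bars for P4 and M1 are at 4.23% and 5.63%.

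Most markers of contractile cells were also highest in P5. Of 7 smooth muscle markers tested, 5 had their highest value in P5 (background 38.2%), 1 in P1 (Smtn) and 1 in M1 (Lmod1). The 10 smooth muscle markers summed to 1432 CPM in P5, 34.1 CPM in P1, 0 in P4 and 38.9 CPM in M1, where Lmod1 gave 38.6 CPM. Smtn gave most of the P1 sum, with 24.4 CPM against 14.9 CPM in P5, and Acta2 gave most of the P5 sum. Acta2, the actin of contractile cells and myofibroblasts, was at 1178 CPM in P5, 7.24 CPM in P1 and listed at 0 in P4 and M1, while the defining smooth muscle genes Myh11 and Myocd were at 0 in every line. Myl9 was at 123 CPM in P5 and Tagln at 80.1 CPM, against at most 0.709 CPM for either in the other lines. Of 9 fibroblast markers tested, 7 were highest in P5 (background 38.2%), among them Pdgfrb with 86.6 CPM in P5, 10.2 CPM in P1 and 0 in P4 and M1. Fap with 1.04 CPM and Dpt with 2.00 CPM were seen in P5 alone and could count in that line only. Thy1 was at most 0.174 CPM in any line and was not tested. The summed fibroblast list did not follow this order, at 3692 CPM in P5, 4767 CPM in P1, 1728 CPM in P4 and 1413 CPM in M1, and Pdpn, Tcf21 and Meox2 were at 0 in every line. Its sum was carried by S100a4, with 1142 CPM in P5, 2977 CPM in P1, 164 CPM in P4 and 246 CPM in M1, and by Vim, with 2245 CPM, 1701 CPM, 1499 CPM and 1130 CPM in the same order. The other 12 genes of the list, Prrx1 the highest of them with 160 CPM in P5, summed to 305 CPM in P5, 88.5 CPM in P1, 64.6 CPM in P4 and 37.5 CPM in M1, so that P5 was highest once these abundant genes were set aside, a division made after their values were seen.

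Epithelial markers were divided. The 10 genes summed to 301 CPM in P5, 3184 CPM in P1, 865 CPM in P4 and 814 CPM in M1, and the low sum of P5 came from the keratins Krt8, Krt18 and Krt19. Krt8 was at 32.5 CPM in P5, 1543 CPM in P1, 451 CPM in P4 and 454 CPM in M1. Of the 8 epithelial markers tested, however, 5 were highest in P5 (background 38.2%). Among them were Krt7 with 135 CPM against 113 CPM in P1, Cdh1 (E-cadherin) with 49.6 CPM against 14.6 CPM, and Epcam with 27.7 CPM against 1.26 CPM. Cldn7 and Esrp1, also among the 5, reached 1 CPM in P5 alone. Markers of vessels and of liver cells were low, and P5 was the line in which most of them were seen. The 10 endothelial markers summed to at most 20.4 CPM. The 2 of them that were tested, Kdr with 12.5 CPM and Vwf with 5.81 CPM, were seen in P5 alone, while Cdh5 and Tie1 were at 0 in all lines. The 10 hepatocyte and stellate markers summed to at most 10.9 CPM, with Alb at 0 in all lines. The 14 neuroendocrine markers summed to 1317 CPM in P5, 345 CPM in P1, 299 CPM in P4 and 993 CPM in M1. In the primary lines most of this sum was Ncam1, with 1057 CPM in P5, 340 CPM in P1 and 299 CPM in P4, against 319 CPM in M1. Of the 14 genes, 8 were highest in M1 (background 22.0%) and 6 in P5 (background 38.2%). The part of other cell types in the P5 values was not tested.

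Some basement membrane genes differed little from line to line. Lama5, the alpha chain of the laminins of lung epithelium, was at 54.4 CPM in P5, 52.0 CPM in P1, 60.5 CPM in P4 and 56.3 CPM in M1. Lamc1, the gamma chain shared by most laminins, was at 67.0 CPM in P5, 34.0 CPM in P1, 43.6 CPM in P4 and 40.6 CPM in M1. All lines thus contained both chains, and the ratio of Lamc1 to Lama5 CPM stayed between 0.655 and 0.720 in P1, P4 and M1 and was 1.23 in P5. The beta chains varied more. Lamb1 was at 144 CPM in P5, 152 CPM in P1, 26.5 CPM in P4 and 56.7 CPM in M1. Lamb2 was at 195 CPM in P5, 80.2 CPM in P1, 49.0 CPM in P4 and 27.8 CPM in M1, where it was below every primary line.

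Lamb3 and Lama4 had opposite patterns. Lamb3, a chain of the epithelial anchoring laminin, was at 0.694 CPM in P5, 13.4 CPM in P1, 32.8 CPM in P4 and 0 in M1. Its partner chain Lama3 was at 0 in every line. Lama4, known from mesenchymal and vascular basement membranes, was at 24.6 CPM in P5, 1.26 CPM in P1, 0 in P4 and 0.806 CPM in M1. Over all 11 laminin genes, the sum ran from 182 CPM in M1 through 212 CPM in P4 and 339.8 CPM in P1 to 491 CPM in P5.

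Col4a1 and Col4a2 encode the chains of the most widespread collagen IV trimer, which holds Col4a1 and Col4a2 products together. They are neighbors on chromosome 8 (Col4a1 from 11198423 to 11312889, Col4a2 from 11312805 to 11449287 in GRCm38.p6, the assembly called mm10 in the processing notes) and are transcribed in opposite directions. The start sites used for the windows below, 11312826 for Col4a1 and 11312805 for Col4a2, lie 21 bases apart. That of Col4a1 lies inside its gene span and not at its end. The windows of 300 bases around each start site, most of it upstream, share 78 bases, and they are shown because the transcripts of this shared stretch had unequal values in the lines. The sequences were taken from RefSeq and are printed from 5′ to 3′ on the strand of each gene, Col4a1 at chr8:11312777-11313076 on the minus strand and Col4a2 at chr8:11312555-11312854 on the plus strand. Capitals mark matches to CCAAT (the CCAAT box) and GGGCGG (the GC box) on either strand.
Col4a1: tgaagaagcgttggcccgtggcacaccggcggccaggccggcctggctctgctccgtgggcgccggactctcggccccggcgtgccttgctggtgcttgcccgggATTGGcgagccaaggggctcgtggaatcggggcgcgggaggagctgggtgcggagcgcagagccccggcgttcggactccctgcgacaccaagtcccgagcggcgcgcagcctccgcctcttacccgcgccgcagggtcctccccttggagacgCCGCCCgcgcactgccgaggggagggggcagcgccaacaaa
Col4a2: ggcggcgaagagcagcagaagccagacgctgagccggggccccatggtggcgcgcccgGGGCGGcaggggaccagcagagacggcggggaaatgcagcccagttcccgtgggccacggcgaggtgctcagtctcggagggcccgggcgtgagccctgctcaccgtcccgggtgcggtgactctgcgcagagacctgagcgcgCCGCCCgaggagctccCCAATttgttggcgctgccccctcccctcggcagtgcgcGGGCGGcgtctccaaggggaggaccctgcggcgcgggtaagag
The Col4a1 window held 1 CCAAT and 1 GGGCGG match, and the Col4a2 window 1 and 3. CCAAT occurred in 37.4% and GGGCGG in 35.7% of 32851 RefSeq promoter windows of this length, and in 27.8% and 54.4% of 79 windows of the members. Such matches are a description of the letters only.

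Col4a1 was at 72.5 CPM in P5, 129.9 CPM in P1, 105 CPM in P4 and 60.0 CPM in M1. Col4a2 was at 72.5 CPM in P5, 71.3 CPM in P1, 10.7 CPM in P4 and 2.15 CPM in M1. The ratio of Col4a2 to Col4a1 CPM was thus 0.999 in P5 and 0.548 in P1, but 0.102 in P4 and 0.0358 in M1. The gene spans overlap by their first bases and whether counting used the strand is not stated, so that reads from the shared stretch cannot be assigned with certainty. A similar split was seen for collagen VI, a beaded microfibril of 3 different chains whose genes Col6a2 and Col6a1 lie 85162 bases apart on chromosome 10. Col6a1 was at 135 CPM in P5, 63.6 CPM in P1, 56.0 CPM in P4 and 38.3 CPM in M1. Col6a2 was at 166 CPM in P5, 109 CPM in P1, 18.5 CPM in P4 and 11.2 CPM in M1. The ratio of Col6a2 to Col6a1 CPM was 1.71 in P1 and 1.23 in P5, against 0.330 in P4 and 0.292 in M1. Col6a3, the third chain, was at 23.9 CPM in P5, 4.51 CPM in P1 and 0 in both P4 and M1. Lamb1, Lamb2, Col4a2, Col6a2 and Col6a3 were thus all lower in P4 and M1 than in P1 and P5, but 47.1% of all genes tested and 46 of the 71 members had this order.

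Col18a1, the basement membrane collagen that carries endostatin at its end, was highest in P1. It was at 52.0 CPM in P5, 156 CPM in P1, 59.2 CPM in P4 and 34.6 CPM in M1. The other 4 collagen IV genes reached at most 7.97 CPM. That value belonged to Col4a5 in M1, which was listed at 5.98 CPM in P1, 0 in P4 and 1.91 CPM in P5.

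Fibrillar collagens separated P5 from the other lines. The 11 genes of this group summed to 1309.9 CPM in P5, 147 CPM in P1, 78.4 CPM in M1 and 56.4 CPM in P4. Col3a1, a collagen of elastic tissues, was at 483 CPM in P5, 34.0 CPM in P1, 0.0720 CPM in P4 and 0 in M1. Col1a1, the main chain of collagen I, was at 145 CPM in P5, 16.1 CPM in P1, 0 in P4 and 0.0895 CPM in M1, which is 1 read. Its partner chain Col1a2 was at 206 CPM in P5, 7.66 CPM in P1, 33.6 CPM in P4 and 38.4 CPM in M1. P4 and M1 thus had Col1a2 with Col1a1 at or near 0, whereas P1 and P5 had both.

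Collagen V, which regulates the diameter of collagen I fibrils, had chains that differed in the lines where they were seen. Col5a1 was at 321 CPM in P5, 73.2 CPM in P1, 15.5 CPM in P4 and 32.9 CPM in M1. Col5a2, which lies 24625 bases from Col3a1 on chromosome 1, was at 89.3 CPM in P5, 0 in P1, 7.13 CPM in P4 and 0 in M1. Col27a1, a fibrillar collagen of cartilage, was at 20.9 CPM in P5, 2.10 CPM in P1 and 0 in both P4 and M1. The remaining 5 fibrillar genes reached at most 18.9 CPM, and all 9 fibrillar genes tested had their highest value in P5 (background 38.2%).

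Of 11 tested collagens outside these groups, most of which attach to fibrils or form networks, 9 were highest in P5 (background 38.2%). Col8a1, a network collagen of vessel walls, was at 216 CPM in P5, 9.76 CPM in P1 and 0 in both P4 and M1. Col16a1 was at 151 CPM in P5, 2.20 CPM in P1 and 0 in both P4 and M1. Col12a1, a collagen on the surface of collagen I fibrils, was at 60.9 CPM in P5, 6.19 CPM in P1 and 0 in both P4 and M1. Of the 19 remaining genes of this group, 14 stayed under 1 CPM and 5 of these were at 0 in every line. The highest among them was Col7a1, the anchoring fibril collagen beneath epithelia, with 9.98 CPM in P5, 4.51 CPM in P1, 0 in P4 and 13.7 CPM in M1.

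**Figure D2:**
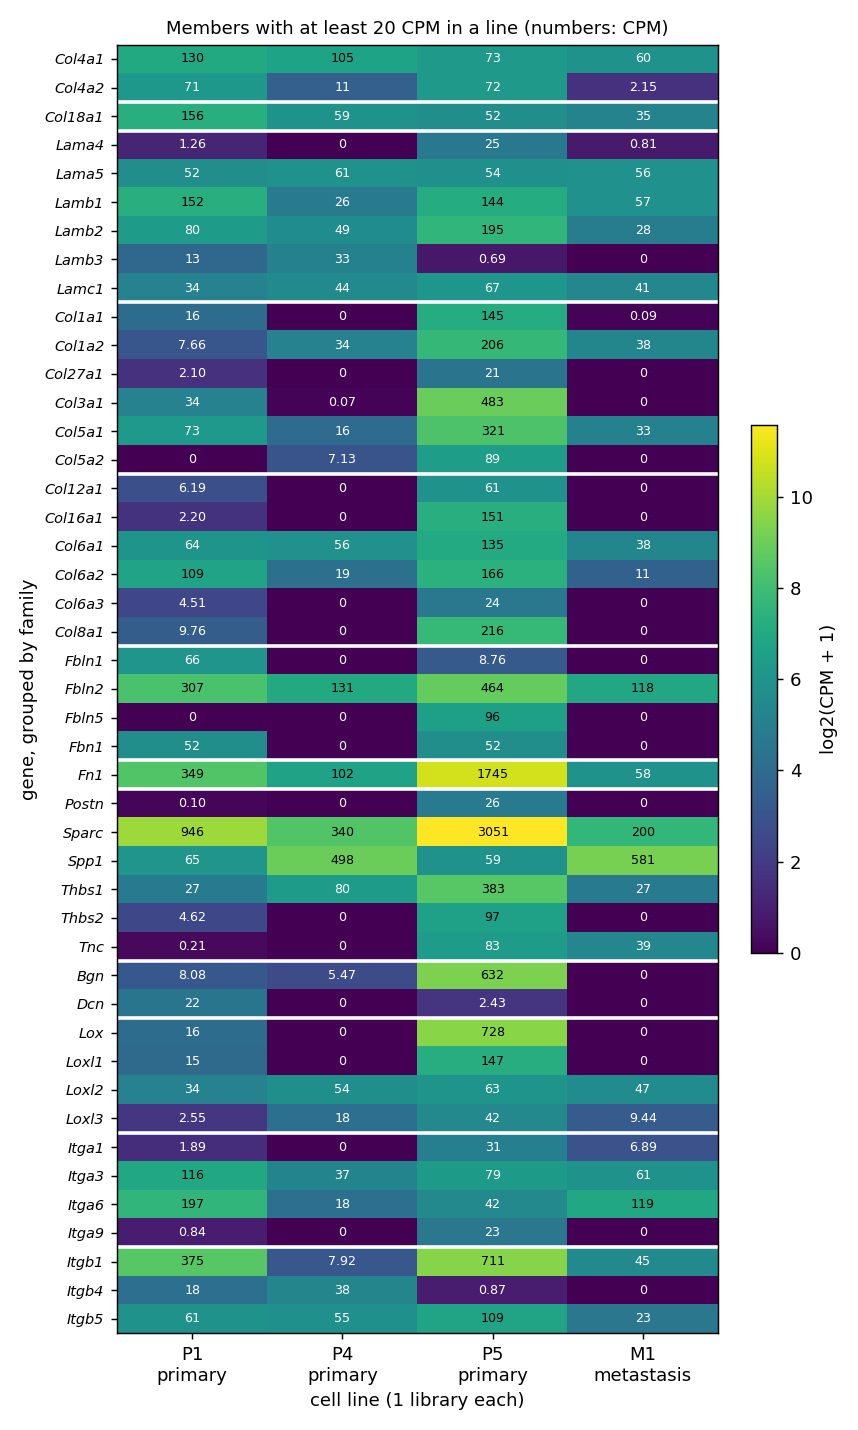
CPM of the 45 genes that reached 20 CPM (rows, grouped by family between white lines) in the 4 lines (columns, 1 library each). Color gives log2(CPM + 1) and the numbers give CPM. The P5 column is brightest for most collagens, Lox and Bgn, the Lama5 row is nearly even, and Spp1 is brightest in P4 and M1.

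Cross-linking enzymes followed the fibrillar collagens only in part. Lox, which cross-links collagen and elastin, was at 728 CPM in P5, 16.1 CPM in P1, 0 in P4 and 0 in M1. Loxl1, needed for elastic fibers, was at 147 CPM in P5, 14.9 CPM in P1, 0 in P4 and 0 in M1. Both were thus seen in P1 and P5 alone. Loxl2, which acts on collagen IV, varied less, with 63.1 CPM in P5, 34.0 CPM in P1, 54.1 CPM in P4 and 47.2 CPM in M1. Loxl3 was at 42.4 CPM in P5, 2.55 CPM in P1, 17.98 CPM in P4 and 9.44 CPM in M1. The fifth enzyme, Loxl4, was at 6.42 CPM in P5, 16.4 CPM in P1 and 0 in both P4 and M1.

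Fn1, which encodes the cell adhesion protein fibronectin, was present in every line. It was at 1745 CPM in P5, 349 CPM in P1, 102 CPM in P4 and 58.3 CPM in M1, so that P5 was 5.00-fold above P1, 17.0-fold above P4 and 29.9-fold above M1. Elastic fiber genes differed by member. Fbln2, a fibulin of elastic fibers and basement membranes, was at 464 CPM in P5, 307 CPM in P1, 131 CPM in P4 and 118 CPM in M1. Fbn1, the microfibril protein fibrillin, was at 51.5 CPM in P5, 51.8 CPM in P1 and 0 in both P4 and M1. P1 and P5, which differed widely in collagens, were thus alike in Fbn1. Fbln1, a binding partner of fibronectin, was highest in P1, at 65.6 CPM, with 8.76 CPM in P5 and 0 in P4 and M1. Fbln5, an adaptor of elastic fibers, was at 95.5 CPM in P5 and 0 in the other lines. Elastin itself (Eln) was at 0.174 CPM in P5, under the floor of 3 reads, and at 0 elsewhere.

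Small leucine-rich proteoglycans, which bind collagen fibrils, split between P1 and P5. Bgn (biglycan) was at 632 CPM in P5, 8.08 CPM in P1, 5.47 CPM in P4 and 0 in M1. Dcn (decorin) was at 2.43 CPM in P5, 21.8 CPM in P1 and 0 in both P4 and M1. Lum (lumican) reached only 0.174 CPM in P5 and was at 0 elsewhere. Biglycan was thus far higher in P5 than in P1, while decorin had the opposite order.

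Spp1 had another order of lines. It encodes osteopontin, a secreted phosphoprotein that binds integrins and CD44. Spp1 was at 59.0 CPM in P5, 65.1 CPM in P1, 498 CPM in P4 and 581 CPM in M1, so that P4 and M1 were both high and P1 and P5 both low. M1 was 8.93-fold above P1 and 9.85-fold above P5, but only 1.17-fold above P4. Lama5 was the other member in which P4 and M1 both exceeded P1 and P5, and its 4 values lay close together. This order was seen in 2 of 71 members beside 9.57% of all genes tested. The first of 2 RefSeq promoter windows of Spp1 (chromosome 5, gene from 104435111 to 104441053) is shown for the distinct pattern of the gene. It lies at chr5:104434861-104435160 on the plus strand (RefSeq, GRCm38.p6) and held 1 match to TATAAA, the letters of a TATA box, and 1 to CCAAT, in capitals. The TATAAA match lies near the upstream end of the window, away from the start site. The other window, chr5:104435942-104436241, held none of the motifs searched.
Spp1: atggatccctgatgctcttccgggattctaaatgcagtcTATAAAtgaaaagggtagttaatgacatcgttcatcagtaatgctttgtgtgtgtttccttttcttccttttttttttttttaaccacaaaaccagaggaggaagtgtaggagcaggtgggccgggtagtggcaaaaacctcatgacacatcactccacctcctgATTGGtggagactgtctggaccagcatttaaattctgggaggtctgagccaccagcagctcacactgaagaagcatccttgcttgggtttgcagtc
TATAAA was present in 13.6% of all windows and 12.7% of the members' windows. TGANTCA (the AP-1 motif, 7.81% of all windows and 3.80% of the members' windows) and GGAATG (a TEAD motif, 14.7% and 12.7%) had no match in the Spp1, Col4a1 and Col4a2 windows shown. Both strands were searched and none of these motifs is part of another.

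The other matricellular proteins, secreted modulators of cell and matrix contact, were highest in P5. Sparc, a collagen-binding glycoprotein, was at 3051 CPM in P5, 946 CPM in P1, 340.1 CPM in P4 and 199.995 CPM in M1. P5 was thus 3.22-fold above P1 and 15.3-fold above M1 in Sparc. Thbs1, an activator of latent TGF-beta, was at 383 CPM in P5, 27.2 CPM in P1, 80.5 CPM in P4 and 26.6 CPM in M1. Thbs2, its close relative, was at 96.9 CPM in P5, 4.62 CPM in P1 and 0 in both P4 and M1. Tnc, an anti-adhesive protein of developing and wounded tissue, was at 82.6 CPM in P5 and 39.5 CPM in M1 but at 0.210 CPM in P1 and 0 in P4. Tnc was thus higher in M1 than in P1 and P4. Postn (periostin), best known from fibroblasts, was at 25.5 CPM in P5, at 0.105 CPM in P1 and at 0 in P4 and M1.

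**Figure D3:**
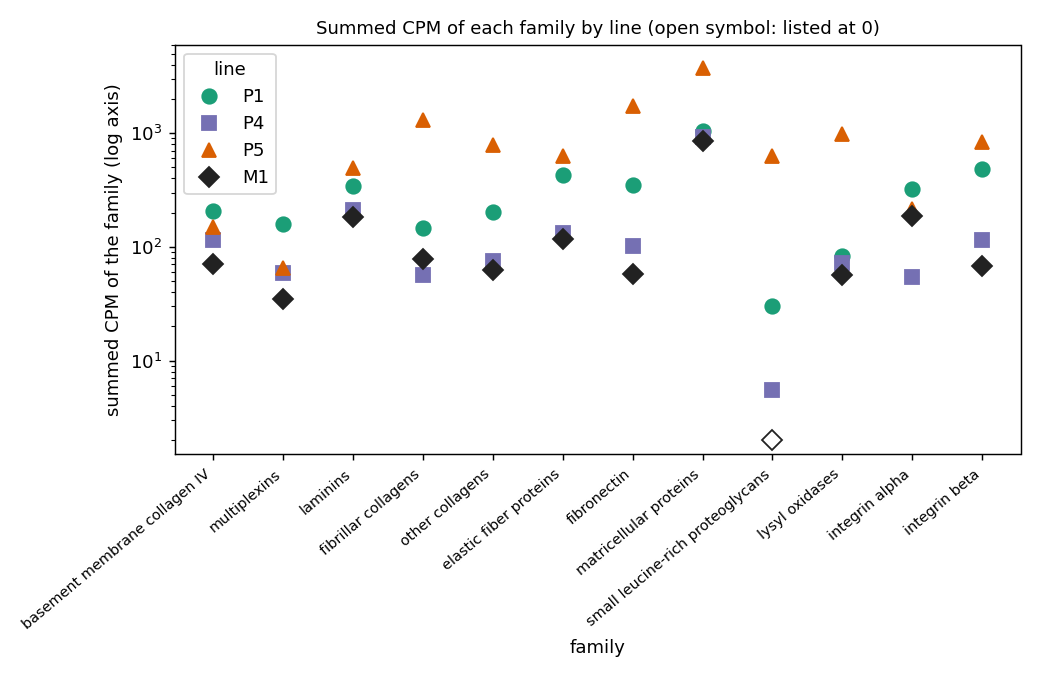
Summed CPM (y axis, log scale) of the members of each family (x axis) in the 4 lines (symbols, 1 library each; an open symbol marks a sum listed at 0 and its height has no value). P5 is highest for fibrillar collagens (1309.9 CPM), lysyl oxidases (987 CPM) and proteoglycans (634 CPM), whereas P1 is highest for collagen IV (208 CPM), multiplexins (159 CPM) and integrin alpha subunits (324 CPM).

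Among the receptors, Itgb1 varied widely. It encodes the beta 1 subunit, the common partner of most matrix-binding alpha subunits. Itgb1 was at 711 CPM in P5, 375 CPM in P1, 7.92 CPM in P4 and 45.3 CPM in M1. Itga3, an alpha subunit of laminin receptors, was at 78.5 CPM in P5, 116 CPM in P1, 36.9 CPM in P4 and 60.8 CPM in M1. Itga6, which also forms laminin receptors and can pair with Itgb1 or Itgb4 products, was at 42.5 CPM in P5, 197 CPM in P1, 17.6 CPM in P4 and 119 CPM in M1. The alpha and beta subunits did not keep step. The ratio of Itgb1 to Itga6 CPM was 1.91 in P1 and 16.7 in P5, against 0.449 in P4 and 0.380 in M1. The ratio of Itgb1 to Itga3 CPM was 3.22 in P1, 9.05 in P5, 0.215 in P4 and 0.745 in M1.

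Itgb4, the partner of Itga6 in hemidesmosomes, was at 0.868 CPM in P5, 17.6 CPM in P1, 37.8 CPM in P4 and 0 in M1. It shared its order of lines with Lamb3, a chain of its laminin ligand, with both highest in P4 and at 0 in M1. Itgb5, a vitronectin receptor subunit, was at 109 CPM in P5, 61.0 CPM in P1, 55.2 CPM in P4 and 22.9 CPM in M1. Its alpha partner Itgav, which the rule did not take because its name holds no number, was at 73.7 CPM in P5, 33.9 CPM in P1, 0 in P4 and 0.269 CPM in M1, or 3 reads. P4 and M1 thus had the beta subunit with the alpha subunit at or near 0. Itga1, a collagen receptor subunit, was at 30.8 CPM in P5, 1.89 CPM in P1, 0 in P4 and 6.89 CPM in M1. Itga9, a receptor subunit for tenascin C and osteopontin, was at 23.1 CPM in P5, 0.840 CPM in P1 and 0 in both P4 and M1.

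Integrins of blood cells were low in most lines. Itgb2, the beta subunit of leukocyte integrins, was at most 0.694 CPM in any line and at 0 in P4 and M1. Itga4, a subunit of lymphocyte integrins, was listed at 0 in P1 and P4, and its 1.16 CPM in M1 exceeded the 0.182 CPM in P5, so that it passed the filter through M1 alone. Itgb7, its lymphocyte partner, was at 0.607 CPM in P5, 15.3 CPM in P1 and 0 in both P4 and M1. The 15 immune cell markers summed to 181 CPM in M1 and to between 14.3 CPM and 15.97 CPM in the primary lines. Of the 8 tested, 7 were highest in M1 (background 22.0%). M1 held 47.4 CPM of Lyz2 (lysozyme), where no primary line exceeded 0.735 CPM, together with 39.2 CPM of Fcer1g and 39.1 CPM of Laptm5, where none exceeded 0.210 CPM, and 28.0 CPM of Csf1r, where the highest primary value was 8.94 CPM. By limma 0 of the 8 were called, and 5 (Cd4, Fcer1g, Laptm5, Lyz2 and Tyrobp) were higher in M1 at an unadjusted p under 0.05 (background 4.53%). Ptprc, the defining leukocyte gene, was at 0 in M1 and at most 0.174 CPM elsewhere, and Itgam, Adgre1 and Cd3e were at 0 in every line. The part of these genes in the M1 values was not tested. Across the 11 alpha genes the sum was highest in P1, with 324 CPM, followed by 215 CPM in P5, 188 CPM in M1 and 54.5 CPM in P4. Across the 8 beta genes it was 839 CPM in P5, 485 CPM in P1, 116 CPM in P4 and 68.2 CPM in M1.

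**Figure D4:**
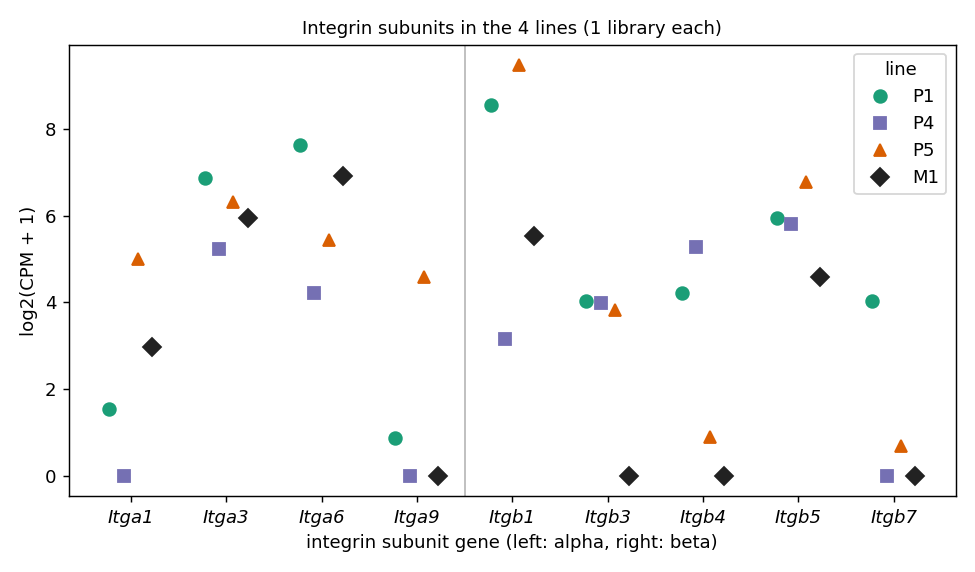
Levels of 9 integrin subunit genes (x axis, alpha subunits left and beta subunits right of the grey line) as log2(CPM + 1) (y axis) in the 4 lines (symbols, 1 library each). Itgb1 ranges from 7.92 CPM in P4 to 711 CPM in P5, whereas Itgb3 is nearly equal in the primary lines and listed at 0 in M1.

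P5 was next set against P1, the other library with a broad range of genes, as a description of 1 library against 1. On CPM + 1, 29 of 71 members (40.8%) were at least 4-fold higher in P5, beside 5.81% of all genes, and 6 members were at least 4-fold lower, beside 1.52%. The median log2 difference was 1.27 over the members and 0.18 over all genes. The 29 included the fibrillar collagen genes Col1a1, Col1a2, Col2a1, Col3a1, Col5a1, Col5a2, Col11a1 and Col27a1, together with Lox, Loxl1, Loxl3, Bgn, Fn1, Postn, Tnc, Thbs1, Thbs2 and Fbln5. The receptors Itga1, Itga2, Itga9 and Itga11 were also among them. The 6 that were lower in P5 were Dcn, Fbln1, Lamb3, Itga6, Itgb4 and Itgb7, of which 2 stayed past this size with 5 CPM added in place of 1 CPM. In 6 of the 29 P1 was listed at 0 (Col5a2, Col11a1, Fbln5 and Itga11 of those named), so that the size depends on the 1 CPM added.

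M1 was set against P4 in the same way, as both libraries held few genes. At least 4-fold higher in M1 were 7 members (9.86%, background 22.9%), namely Tnc, Itgb1, Itga6, Itga1, Col7a1, Col11a1 and Col4a5. At least 4-fold lower were 5 members (7.04%, background 9.98%), namely Bgn, Col5a2, Lamb3, Itgb4 and Itgb3. The lower line was listed at 0 in 5 of the 7, all but Itgb1 and Itga6, and M1 was at 0 in all 5 of the others. With 5 CPM added, 2 members were past this size in each direction. The median log2 difference was 0 both over the members and over all genes, and 40 of the 71 members (background 34.0%) were listed at 0 in M1 and 42 (background 47.7%) in P4.

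The comparison of M1 with the 3 primary lines addressed which transcripts differ in the line from the metastasis. No member passed the test. In a simulated data set of this design, however, 0% of 50 genes changed 64-fold were called. A lack of calls, here and in the lists below, thus cannot show that the lines are alike. With limma on log2(CPM + 1) and Benjamini-Hochberg adjustment over all 14888 genes, 0 of 71 members were called in either direction (background 0.0%), and the smallest adjusted p of a member was 0.428. At an unadjusted p under 0.05, 0 members were higher and 1 lower, beside 4.53% and 5.15% of all genes. Only the 3 primary lines supply a spread, which M1 is taken to share, so that the p asks whether M1 lies outside these lines. Without P4, 0 members were called as well (smallest adjusted p = 0.0791, between 0.0791 and 0.890 over the alternatives), with 1 member higher and 12 lower at an unadjusted p under 0.05, beside 10.3% and 25.3% of all genes.

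The member with the unadjusted p under 0.05 was Itgb3, named here after its values were seen. It encodes the beta 3 subunit, which binds osteopontin and vitronectin with Itgav. Itgb3 was at 13.3 CPM in P5, 15.3 CPM in P1, 14.97 CPM in P4 and 0 in M1, where the floor was 0.269 CPM. The primary lines held 14.5 ± 1.09 CPM (SD, n = 3), and the log2 difference was -3.95 ± 1.19 (SE; limma, unadjusted p = 0.0313, adjusted p = 0.428, between 0.0791 and 0.890 over the alternatives). All 3 primary lines were above M1, and with M1 at 0 the size of the difference depends on the 1 CPM added.

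Other differences were tested for members with values in all or most lines. Fn1 had a log2 difference of -2.75 ± 1.74 (SE), with 732 ± 886 CPM in the primary lines (SD, n = 3) against 58.3 CPM in M1 (limma, adjusted p = 0.721). For Sparc it was -2.31 ± 1.37, with 1446 ± 1423 CPM against 199.995 CPM (limma, adjusted p = 0.721). Both were below all 3 primary lines, and the primary lines spread widely. Without P5 the difference was -1.68 for Fn1 and -1.5 for Sparc. For Col4a2 the difference was -3.65 ± 1.45 (limma, adjusted p = 0.583), and for Itgb5 it was -1.60 ± 0.63 (limma, adjusted p = 0.578). For Itgb1 the size of the difference depended on each of the primary lines. It was -1.53 ± 2.87 (limma, adjusted p = 0.774) with all primary lines and -3.48 ± 0.57 without P4 (limma, adjusted p = 0.0825, between 0.0825 and 0.967 over the alternatives), but -0.78 without P1 and -0.32 without P5. Lama5 in M1 lay within the primary range, with 55.6 ± 4.42 CPM in the primary lines (SD, n = 3), 56.3 CPM in M1 and a log2 difference of 0.020 ± 0.46 (limma, adjusted p = 0.982). Spp1 had the opposite sign, with 207 ± 252 CPM in the primary lines (SD, n = 3) against 581 CPM in M1, a log2 difference of 2.21 ± 1.48 and an adjusted p of 0.721 by limma. Without P4 the log2 difference of Spp1 was 3.21, but P4 is the primary line nearest to M1 in this gene, at 498 CPM. The spread then came from P1 and P5 alone.

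**Figure D5:**
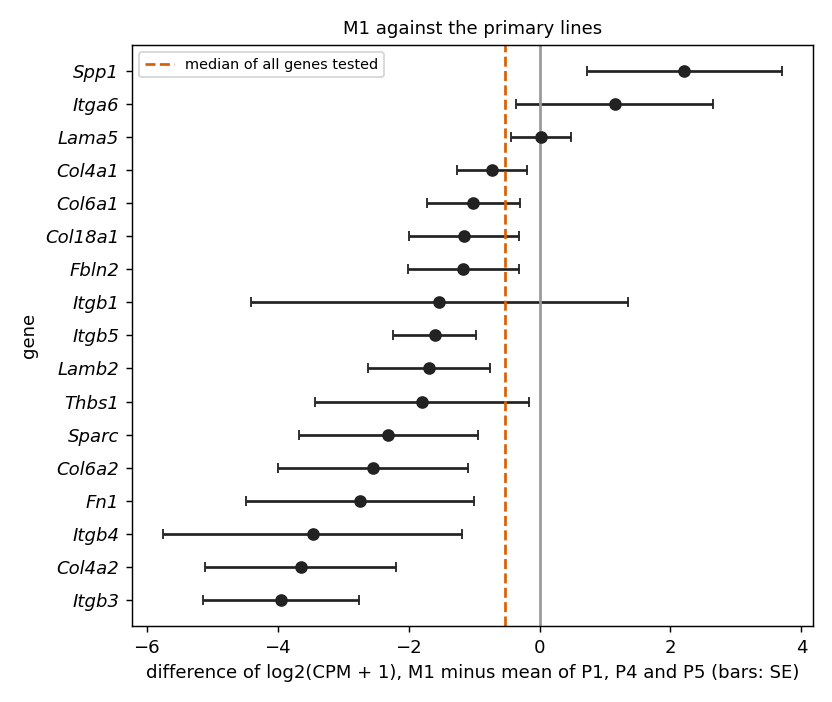
Difference of log2(CPM + 1) between M1 and the mean of P1, P4 and P5 (x axis, points; bars show the SE from limma) for 17 members (y axis) picked after their values were seen. The dashed line is the median of all genes tested (-0.53). Spp1 lies at 2.21 and Itgb3 at -3.95, and no difference passed the threshold after adjustment.

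M1 lay below every primary line in 17 of 71 members (23.9%), beside 20.7% of all genes, and above every primary line in 4 (5.63%), beside 22.0%. The 17 were Bgn, Col3a1, Col4a1, Col4a2, Col6a1, Col6a2, Col18a1, Fbln2, Fn1, Sparc, Thbs1, Lamb2, Lamb3, Itgb3, Itgb4, Itgb5 and the ceramide transfer gene Col4a3bp. The 4 above were Spp1, Col4a5, Col7a1 and Itga4. Without P4 the counts were 52 below (background 59.0%) and 5 above (27.6%). Among the 19 members with at least 10 CPM in all 4 lines, 11 were below every primary line (57.9%, background 31.3%). The median log2 difference of M1 was -1.57 over the 71 members and -0.53 over all genes.

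Of 45 members with at least 20 CPM in a line, 22 were above 0 in all 4 lines, and 14 were listed at 0 in both P4 and M1. The 14 were Col6a3, Col8a1, Col12a1, Col16a1, Col27a1, Fbln1, Fbln5, Fbn1, Dcn, Lox, Loxl1, Postn, Thbs2 and Itga9. Among all 71 members tested, 29 (40.8%) were listed at 0 in P4 and M1 and above 0 in P1 and P5, beside 23.6% of all genes. Of 98 matrix and integrin genes, 64 reached 1 CPM in P5, 55 in P1, 28 in M1 and 27 in P4, and 23 of the 71 members tested (32.4%) reached it in every line, beside 39.6% of all genes. The number of genes detected in each library, as given above, has the same order of lines.

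Partners of these proteins were examined as lists. Of 19 tested genes for collagen synthesis, 0 were called by limma, 0 had an unadjusted p under 0.05 (background 4.53% higher and 5.15% lower) and 14 were highest in P5 (background 38.2%). Pcolce, an enhancer of procollagen cleavage, was at 363 CPM in P5, 431 CPM in P1, 51.6 CPM in P4 and 109.9 CPM in M1. Colgalt1, a collagen galactosyltransferase, was at 104 CPM in P5, 177 CPM in P1, 86.7 CPM in P4 and 174 CPM in M1. Both were lowest in P4. Crtap, part of the collagen prolyl hydroxylation complex in the endoplasmic reticulum, was at 73.4 CPM in P5, 27.8 CPM in P1, 90.3 CPM in P4 and 132 CPM in M1. Ppib, a prolyl isomerase of the same complex, was at 77.5 CPM in P5, 39.8 CPM in P1, 80.8 CPM in P4 and 119.5 CPM in M1. None of these 4 genes was lowest in M1, which was the highest line for Crtap and Ppib.

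Of 9 tested basement membrane partners, 0 were called and 0 had an unadjusted p under 0.05 by limma. M1 was above every primary line in 2 (background 22.0%) and below in 2 (background 20.7%). Tinagl1, a secreted protein that binds laminin and integrins, was at 44.3 CPM in P5, 69.9 CPM in P1, 212 CPM in P4 and 234 CPM in M1. It had the order of Spp1, with P4 and M1 above P1 and P5. Npnt (nephronectin), a ligand of integrins in epithelia, was at 43.3 CPM in P5, 55.9 CPM in P1, 54.5 CPM in P4 and 29.5 CPM in M1. Agrn (agrin) was at 53.8 CPM in P5, 42.4 CPM in P1, 18.9 CPM in P4 and 15.9 CPM in M1. Matn2 (matrilin) was at 39.1 CPM in P5, 39.99 CPM in P1, 0 in P4 and 21.6 CPM in M1.

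Of 22 tested other matrix proteins, 0 were called by limma, 2 were higher (Mfap4 and Ncan) and 1 lower (Mgp) at an unadjusted p under 0.05, and 14 were highest in P5. The background over all genes was 4.53%, 5.15% and 38.2%. Mfap4 was at 10.6 CPM in M1 and listed at 0 in the primary lines, so that it was tested through M1 alone. Ncan was at 1.30 CPM in P5, 0.105 CPM in P1, 0 in P4 and 13.7 CPM in M1. Ltbp1, a binding protein of latent TGF-beta, was at 358 CPM in P5, 155 CPM in P1, 10.8 CPM in P4 and 33.4 CPM in M1. Ltbp3 was at 207 CPM in P5, 100.01 CPM in P1, 32.9 CPM in P4 and 68.5 CPM in M1. Both had the order of Fn1 among the primary lines. Mgp, an inhibitor of calcification, was at 202 CPM in P5, 14.9 CPM in P1, 22.7 CPM in P4 and 0 in M1. Ecm1 was at 92.1 CPM in P5, 31.1 CPM in P1 and 0 in both P4 and M1. Of the other integrin subunits 3 were tested and 0 called or under an unadjusted p of 0.05, and beside Itgav these reached at most 10.4 CPM (Itga2b in P5), with Itgbl1 at most 1.78 CPM and Itgae, which was not tested, at most 0.630 CPM.

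Inside the cell, 26 genes of the integrin adhesion complex were tested and 0 were called by limma. At an unadjusted p under 0.05, Src was higher in M1 (log2 difference 3.02 ± 0.60, SE), and Lims1 (-2.27 ± 0.64), Parva (-3.55 ± 0.64) and Parvb (-4.33 ± 1.04) were lower. Over all genes, 4.53% were higher and 5.15% lower at this p, and these genes were picked by it from the 26. Lims1, Parva and Parvb encode PINCH and parvins, the partners of integrin-linked kinase. Tln1 (talin), which binds integrin tails, was at 289.8 CPM in P5, 222 CPM in P1, 104 CPM in P4 and 85.2 CPM in M1. Flna (filamin) was at 621 CPM in P5, 375 CPM in P1, 247 CPM in P4 and 154 CPM in M1. Both were lowest in M1. Actn1 was at 494 CPM in P5, 275 CPM in P1, 336 CPM in P4 and 261 CPM in M1. Actn4 was at 485 CPM in P5, 260.4 CPM in P1, 622 CPM in P4 and 285 CPM in M1. These actin cross-linkers varied less between lines than Itgb1.

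Of 16 tested matrix receptors other than integrins, 0 were called by limma, and Cd47 (log2 difference -2.28 ± 0.63, SE), Dag1 (-1.53 ± 0.53) and Ddr2 (-5.13 ± 1.20) were lower at an unadjusted p under 0.05. At this p 0 were higher, and the background over all genes was 5.15% lower and 4.53% higher. Dag1 (dystroglycan), a laminin receptor, was at 213 CPM in P5, 139 CPM in P1, 116 CPM in P4 and 51.6 CPM in M1. Cd44, a receptor for hyaluronan and osteopontin, was at 181 CPM in P5, 85.3 CPM in P1, 181 CPM in P4 and 104 CPM in M1. All lines thus had Cd44 together with Spp1. Sdc4 (syndecan) was at 76.5 CPM in P5, 99.0 CPM in P1, 125 CPM in P4 and 233 CPM in M1. Rpsa, a ribosomal protein also described as a laminin receptor, was at 1549 CPM in P5, 1656 CPM in P1, 951 CPM in P4 and 924 CPM in M1. The median log2 difference was -0.87 over the collagen synthesis list, -0.77 over the basement membrane partners, -1.08 over the other matrix proteins, -0.59 over the adhesion complex and -0.62 over these receptors, beside -0.53 over all genes.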

How the data were processed

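RNA of 4 untreated cell lines was sequenced, 1 library each. The authors deposited 1 table of CPM values, in which every library sums to 1000000. The labels name a total RNA kit and the methods of the study a kit for 3′ ends of mRNA, so that the library type differs between the sources. The submitters' processing notes name mm10 as the build. The study's methods on RNA sequencing mention alignment by Bwa to a newer mouse build, followed by steps of mutation calling, without saying whether this also made the gene table. The counting tool is not named there. The most frequent value above 0 was taken as 1 read, which gave 13890726 reads in P4, 11523176 in P5, 11170276 in M1 and 9527011 in P1. With a tolerance of 0.001 reads, between 79.0% and 88.9% of the values above 0 were whole reads, so that the deposited CPM came from estimated counts and no count model was fitted. Reads shared between related genes may have been divided. The 85 rows without a symbol, between 0.00672% and 0.0130% of a library, were left out, and CPM values, which are not divided by gene length, were compared between lines only.

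Lines were grouped by their titles into primary (P1, P4, P5) and metastasis (M1). limma 3.58.1 (R 4.3.3; lmFit, trended eBayes) was used to test M1 against the primary lines on log2(CPM + 1). P-values were two-sided, were adjusted by Benjamini-Hochberg over the 14888 genes that reached 1 CPM in any library, and were called under 0.05. Differences on this scale understate the change of low genes. Nothing states separate cultures beyond 1 per line, and the column names of P1 and P5 have a number in common, of unknown meaning. In a simulated data set of 3 primary lines and 1 metastasis line, 0% of 50 genes changed 64-fold were called. The SDs of the primary lines were shuffled among genes there, so that the link of spread to level was not kept. Single lines were compared as values with no test. Every member with at least 20 CPM in a line was named with its values (45 genes, of which Col27a1 at 20.9 CPM lay just inside and Col5a3 at 18.9 CPM just outside), the other 53 by ranges and counts, and from each of 13 lists of partners and cell type markers up to 4 genes with the highest mean. Col2a1, Col4a5, Col7a1, Col11a1, Eln, Itga2, Itga4, Itga11, Itgb2, Itgb3, Itgb7, Lama3, Loxl4, Lum and some list genes were named outside this rule after their values were seen. The members and the lists were chosen with earlier results of these data known. Promoter windows came from RefSeq (GRCm38.p6) for 68 members, and positions for all 98. Protein sequences were not analysed here, and the values of some genes are not reported here. Tables were made with Python 3.11.15 and pandas 2.3.3.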

Additional observations from a re-analysis of the deposited data

How the results depend on the processing

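With 1 library per line, differences between single lines carry counting error and unknown biological error, a gene listed at 0 may lie anywhere under its floor, and the M1 test has the spread of 3 lines only. Results were recomputed under alternatives (pseudocount, filter on low values, size factors, quantile normalization, eBayes without trend, each primary line left out). Of these, 227 values were held as unchanged, 8 counts moved by more than 1.5 times and 1 difference turned its sign. Many of the 227 could not move, so that their number is no measure of stability. The log2 differences do not depend on the filter or on eBayes, and the range counts do not depend on the pseudocount or on eBayes. Calls could hardly arise under any setting, as the simulation called 0% of genes changed 64-fold. Unchanged meant that a log2 difference kept its sign and was not called, or that a count stayed within 1.5 times. For medians and summed CPM it meant a shift under the SD of the primary lines. That SD was 4737 CPM for the matrix sums, a margin too wide for size factors to exceed. Of 170 log2 differences of 17 members recomputed in this way, 18 moved by more than 1.5 times, 14 of them with a primary line left out. The 170 include those under other filters and under eBayes without trend, which repeat the main values. No member was called under any of these settings. The count of members with M1 below every primary line was 17, but 34 after quantile normalization, between 17 and 52 when one primary line was left out, and 11 among the 19 members with at least 10 CPM in all 4 lines, a set chosen after seeing the data. The count above every primary line was 4 and between 5 and 8 with one primary line left out. With 5 CPM added, the members at least 4-fold lower in P5 than in P1 numbered 2, and those at least 4-fold higher or lower in M1 than in P4 numbered 2 and 2. The 51 members highest in P5 stayed 51 without P4 and were 12 of the 19 members with at least 10 CPM in all 4 lines, both added after seeing the data. The log2 difference of Lama5 turned to -0.027 without P1 and lay between -0.027 and 0.081 with one primary line left out. The median log2 difference of the members lay between -2.19 and -1.03 with one primary line left out and was -0.88 with 5 CPM added, and that of all genes moved from -0.53 to -0.059 with quantile normalization, where the median of the members was -0.93. For these changes the cause was not tested. A batch term could not be fitted because the column headers name no batch. No paired analysis was possible because, by the design of the series, M1 came from another mouse than the primary lines.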
